A study of Mus musculus with 4 samples.

Results

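The S100 calcium-binding genes S100a4, S100a6, S100a8, S100a9, S100a10, S100a11, S100a14 and S100a16 were followed through embryonic mouse skin with and without the methyltransferases of H3K9me3, a histone mark of silent chromatin. These 8 genes were taken by symbol out of 56980 genes in the matrices, which hold 19 symbols of the S100 family in all. They were selected on their UMIs per library in basal, suprabasal, hair follicle and immune cells of the 2 genotypes, so that difference is described here with its spread and without a p-value. Single-cell RNA-seq (10x Genomics 3' v3) had been run on Epcam+ α6+ cells sorted from dorsal skin, in 4 libraries labelled E16.5. The study's list of litters gives another embryonic day for its single-cell litter, and the labels were followed. All 4 samples carried Suv39h1 f/f, Suv39h2-/- and Setdb1 f/f and received tamoxifen, so the deletion of Suv39h2 was shared by the controls. The 2 Ctrl libraries were K14CreERT2- and the 2 TKO (triple knockout) libraries were K14CreERT2+. The Krt14 promoter drives this Cre in basal keratinocytes and their descendants, so immune cells and fibroblasts are not its target, and the study describes its knockout as mosaic.

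S100 proteins are small EF-hand proteins that change shape when they bind calcium and then grip a partner. S100a10 pairs with annexin A2 and S100a11 with annexin A1 at membranes, S100a6 (calcyclin) binds the calcyclin-binding protein Cacybp, and S100a4 binds non-muscle myosin and is known from fibroblasts and motile cells. S100a14 is expressed mainly in epithelia, and S100a16 is found in many tissues. S100a8 and S100a9 form calprotectin, a metal-binding antimicrobial complex that neutrophils carry in bulk and that keratinocytes make under stress.

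All 8 genes lie on chromosome 3 (GRCm39), beside the epidermal differentiation complex, where many genes of the cornified layer sit. From S100a14 (ENSMUSG00000042306, 90434082 to 90436144, plus strand) to S100a9 (ENSMUSG00000056071, 90599931 to 90603071, minus strand), 6 of them fill 169.0 kb. S100a16, S100a4, S100a6 (ENSMUSG00000001025, 90520140 to 90535843) and S100a8 (ENSMUSG00000056054, 90567118 to 90578128) lie between them on the plus strand. S100a11 and S100a10 form a block of 60.1 kb on the far side of a gap of 2811.3 kb. The annotated S100a4 gene overlaps Gm42674 on the same strand, so reads of these cannot be fully told apart. Sequences upstream of the start are shown for S100a6 and S100a9, the neighbours with the largest differences between genotypes in basal cells, and for S100a8, the partner of S100a9. They are the 250 bases before the RefSeq start (GRCm38.p6), 5′ to 3′ on the gene's strand, with a searched motif in capitals.
S100a6 (chr3:90612644-90612893, plus strand): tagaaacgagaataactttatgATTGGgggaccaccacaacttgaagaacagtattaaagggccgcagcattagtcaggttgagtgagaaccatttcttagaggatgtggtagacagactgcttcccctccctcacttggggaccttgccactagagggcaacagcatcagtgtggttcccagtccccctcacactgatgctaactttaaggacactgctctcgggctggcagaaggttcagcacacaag
S100a8 (chr3:90668821-90669070, plus strand): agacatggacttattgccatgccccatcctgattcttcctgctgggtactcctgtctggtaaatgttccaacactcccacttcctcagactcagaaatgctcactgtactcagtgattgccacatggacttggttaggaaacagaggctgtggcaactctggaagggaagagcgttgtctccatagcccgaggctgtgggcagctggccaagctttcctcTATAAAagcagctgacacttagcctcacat
S100a9 (chr3:90695722-90695971, minus strand): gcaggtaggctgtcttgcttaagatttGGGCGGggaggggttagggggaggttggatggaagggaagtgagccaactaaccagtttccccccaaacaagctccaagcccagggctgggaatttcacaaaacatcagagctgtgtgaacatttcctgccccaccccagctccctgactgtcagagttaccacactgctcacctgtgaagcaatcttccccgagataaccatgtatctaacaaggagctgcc

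Both strands of each promoter were searched for TATAAA (the TATA box), GGGCGG (the GC box), TGANTCA (the AP-1 site) and CCAAT, none of which can overlap another over more than a few letters. The capitals in S100a6 are CCAAT on the other strand, 228 bases before the start. S100a8 held TATAAA 30 bases before its start, S100a4 held it at 31 bases, and S100a9 held GGGCGG at 223 bases. S100a11 held GGGCGG 64, 52 and 24 bases and TGANTCA 136 and 38 bases before its start. S100a16 has 2 starts in the table, of which 1 held GGGCGG at 30 and TGANTCA at 192 bases and the other held none of the motifs. Of 32851 RefSeq promoters of this length, 12.37% held TATAAA, 32.74% GGGCGG, 6.75% TGANTCA and 33.85% CCAAT. Promoters were matched for 6 of the 8 members; S100a10 and S100a14 had none in the table. These are matches of letters and were not tested as binding sites.

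The deposited matrices held 3804 to 5785 barcodes and 70749496 to 89655247 UMIs per library, and 10764 cells were kept. A UMI (molecular identifier) stands for a captured transcript end, so levels are given as CPM (UMIs of a gene for every 1000000 UMIs of a cell class in a library) with no scaling by length. Classes were rebuilt by clustering without the S100 genes and named from marker lists. They held 1422, 1610, 979 and 918 basal-like cells in Ctrl 1, Ctrl 2, TKO 1 and TKO 2, and 821, 569, 246 and 436 suprabasal-like cells. In the same order of libraries there were 573, 790, 326 and 423 hair follicle-like and 64, 97, 250 and 293 immune-like cells. Libraries shared 2 to 12 barcodes per pair. The basal-like, suprabasal-like, hair follicle-like and immune-like classes held their markers in each library. Epcam, on which the cells were sorted, was at 74.9 to 419 CPM in these keratinocyte classes. It was at 3.90 to 38.3 CPM in immune-like cells, which instead had the leukocyte gene Ptprc at 148 to 215 CPM. Setdb1 was lower in TKO basal-like cells (73.3, 59.1, 39.7 and 45.0 CPM), by −0.65 on the log2 scale with an SE of 0.14 and an edgeR adjusted p of 0.0302. Suv39h1 (−0.24, edgeR adjusted p 0.27) and Suv39h2 (0.26, edgeR adjusted p 0.373) did not pass the test, and transcript ends may lie outside the deleted parts.

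The levels of the members by class came first. Suprabasal-like cells, the differentiating layer, held the most S100a11, S100a14 and S100a16 in each of the 4 libraries, followed by basal-like, hair follicle-like and immune-like cells. S100a16 in suprabasal-like cells exceeded its basal-like level by 4.02, 3.38, 3.69 and 3.52 times in Ctrl 1, Ctrl 2, TKO 1 and TKO 2. For S100a14 this ratio was 2.21, 2.004, 3.62 and 2.38, and for S100a11 it was 2.23, 2.14, 1.44 and 1.60. The step in S100a11 was thus shallower in both TKO libraries. The summed level of the suprabasal marker list in suprabasal-like cells was lower there too, at 60348, 52117, 27421 and 43921 CPM, and its part in the suprabasal-like values of the members was not tested. S100a10 had another order, with basal-like above suprabasal-like, hair follicle-like and immune-like cells in all 4 libraries. Its first pair was close in Ctrl, where the suprabasal-like level was 0.976 and 0.986 of the basal-like level, against 0.794 and 0.760 in TKO. Fibroblast-like cells held 936, 1166, 1102 and 1137 CPM of S100a10, above basal-like cells in every library. S100a6 was highest in fibroblast-like cells among the classes with at least 20 cells in every library (379, 555, 372 and 585 CPM), and the order of its keratinocyte classes differed between libraries. Within keratinocytes, S100a9 was highest in hair follicle-like cells in both Ctrl libraries and in suprabasal-like cells in TKO 2. In TKO 1 it was highest in hair follicle-like cells (14.3 CPM) with 1 cell that carried neutrophil transcripts, described below, and in suprabasal-like cells (2.47 against 1.92 CPM) without it. Classes come from clustering of the same cells, so these orders are descriptions without a test.

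**Figure D1:**
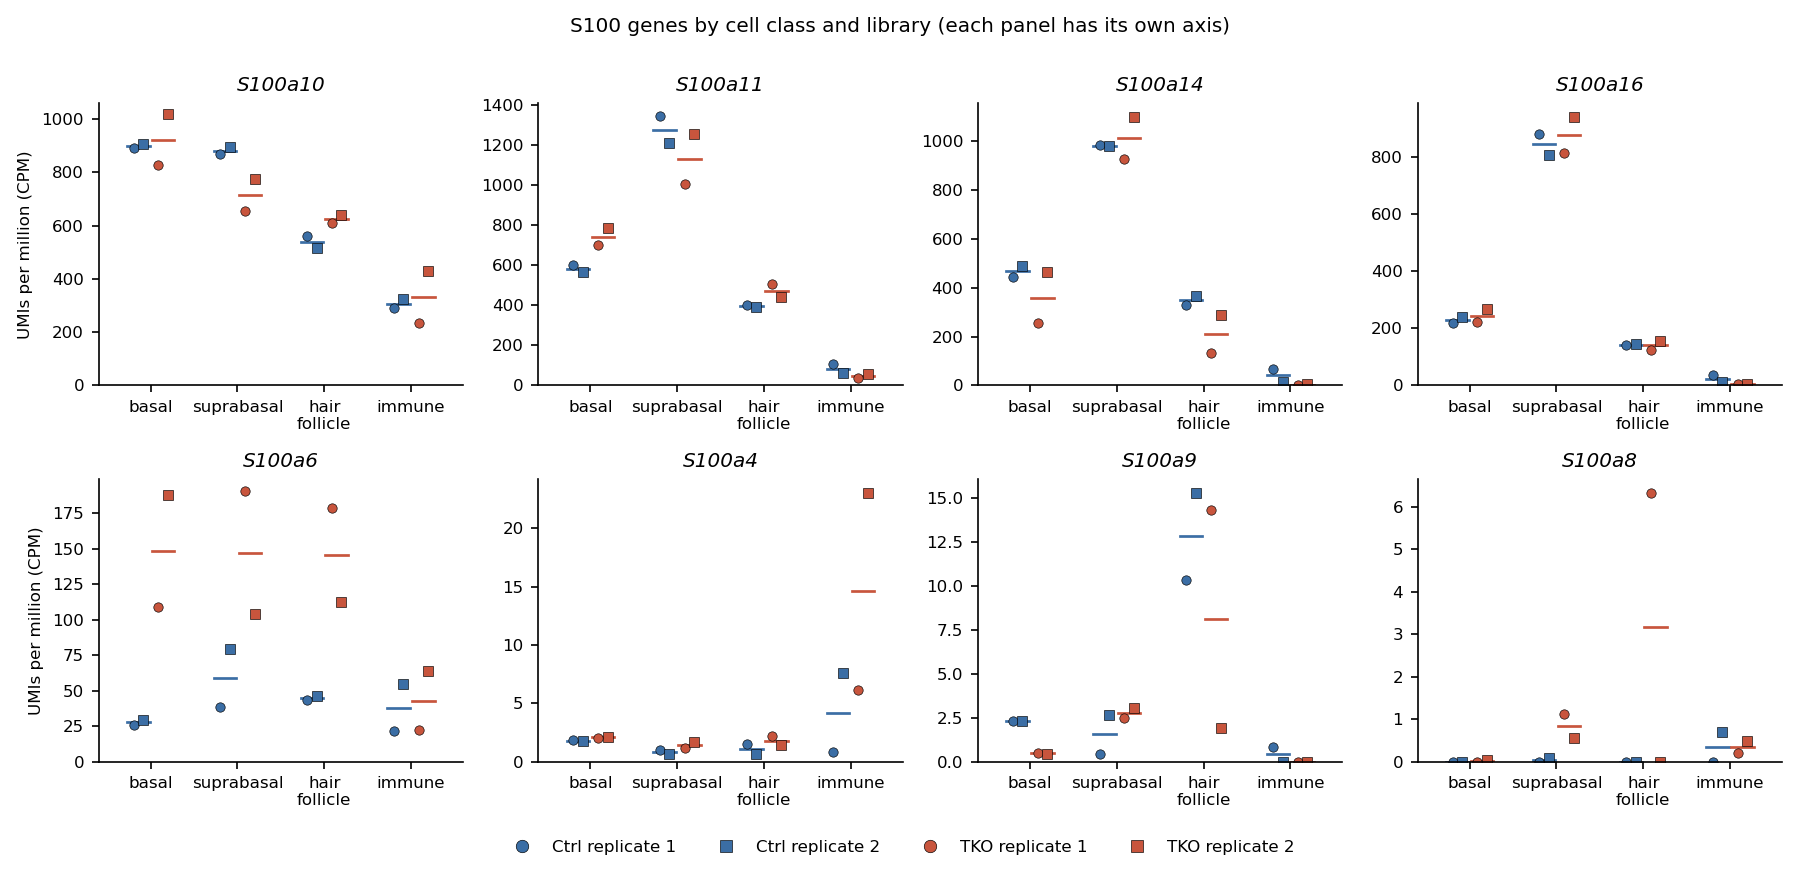
CPM of each S100 gene in 4 cell classes; points are libraries, blue Ctrl and red TKO, circles replicate 1 and squares replicate 2, with a bar at the group mean (n = 2), and each panel has its own axis. S100a11, S100a14 and S100a16 peak in suprabasal-like cells, S100a6 stands higher in all TKO keratinocyte classes, and 1 TKO library carries the hair follicle-like S100a8.

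TKO was compared with Ctrl to ask how the loss of the enzymes moved these genes. In basal-like cells, 7 members passed the expression filter and 2 were called at an edgeR adjusted p under 0.05, S100a6 as higher and S100a9 as lower, where 13.7% of all genes tested were called. DESeq2 called S100a11 as well, and 3 had an unadjusted p under 0.05. In 4 of the 7 the libraries of the groups did not overlap, against 59.3% of all genes. In suprabasal-like cells 0 of 7 were called (background 1.10%), 2 had an unadjusted p under 0.05 and DESeq2 called 1. In 3 of these the groups did not overlap (background 49.7%). In hair follicle-like cells 1 of 7, S100a6, was called as higher by edgeR and DESeq2 (background 12.2%), 2 had an unadjusted p under 0.05, and 4 did not overlap (background 59.4%). In immune-like cells 0 of 6 were called by edgeR (background 0.0254%), 3 had an unadjusted p under 0.05, DESeq2 called 2, and 3 did not overlap (background 36.3%). Because this contrast chose the members, nothing is read from these counts. The median log2 change of the members tested was 0.09, −0.03, 0.25 and −0.36 in the 4 classes in this order, where all genes tested had −0.02, −0.004, −0.02 and −0.003. S100a8 had too few UMIs to be tested in any class.

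S100a6 showed the largest rise. In basal-like cells it had 26.0 and 29.4 CPM in the Ctrl and 109 and 188 CPM in the TKO libraries. The means were 27.7 ± 2.41 and 148 ± 55.9 CPM (SD, n = 2), a log2 change of 2.42 (SE 0.26). Both TKO libraries lay far above both Ctrl libraries and differed between themselves by more than the Ctrl libraries did. In hair follicle-like cells it had 43.1 and 46.1 CPM in Ctrl against 178 and 113 CPM in TKO (1.74, SE 0.20), again without overlap. This change was 0.46, and not called by edgeR, when cells were clustered without the correction between libraries. At 5000 UMIs per cell, 140 of 1404 Ctrl 1 basal-like cells had an S100a6 UMI, or 9.97% (exact binomial limits at 95%, by Clopper-Pearson, of 8.45 and 11.7). The share was 12.3% in Ctrl 2 (limits 10.7 and 14.004), 24.1% in TKO 1 (21.4 and 26.9) and 37.3% in TKO 2 (34.1 and 40.5). Erythroid-like cells, a class with little S100a6, had 5.56%, 0, 0 and 5.38% in the 4 libraries, at a median of 26478, 19883, 26454.5 and 23454 UMIs against 20541.5, 17081.5, 29499 and 27221.5 in basal-like cells. Their 0 of 28 and 0 of 34 cells allow up to 10.7% and 8.82%. Their cluster also held macrophage genes (10907 CPM summed, against 13774 in the largest macrophage-led cluster), so its share is no clean background. With all UMIs of the deeper TKO cells counted, the shares were 32.8%, 32.7%, 62.7% and 71.6%, against 22.2%, 14.3%, 17.6% and 17.7% in erythroid-like cells. The median basal-like cell had 0 CPM in both Ctrl libraries and 34.9 and 60.9 CPM in the TKO libraries. These limits cover counting error alone.

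S100a6 was higher in TKO in most clusters of each keratinocyte class. Both TKO libraries were above both Ctrl libraries in 8 of 8 basal-like, 3 of 4 suprabasal-like and 4 of 5 hair follicle-like clusters with at least 20 cells per library. Its widest basal-like gap was in cluster K2, led by Gria3 and Trp53inp1, at 19.6, 25.5, 184 and 283 CPM. The basal-like cluster K14, led by mt-Rnr1, had a median of 8303 UMIs per cell and only 0, 3, 32 and 5 S100a6 UMIs. K9, a hair follicle-like cluster led by Dkk4, Lsamp and Sp5, had 27.8, 22.2, 181 and 170 CPM. K12, led by the follicle regulator Lhx2, showed no such gap, with 54.8, 56.2, 53.7 and 68.0 CPM. In K8, led by Zfpm2, Plcl1 and Pthlh, TKO 1 had 489 CPM against 106 CPM in TKO 2 and 54.9 and 57.9 CPM in Ctrl. A single cell with 393 UMIs carried 19.1% of the S100a6 UMIs of all hair follicle-like cells in TKO 1.

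**Figure D2:**
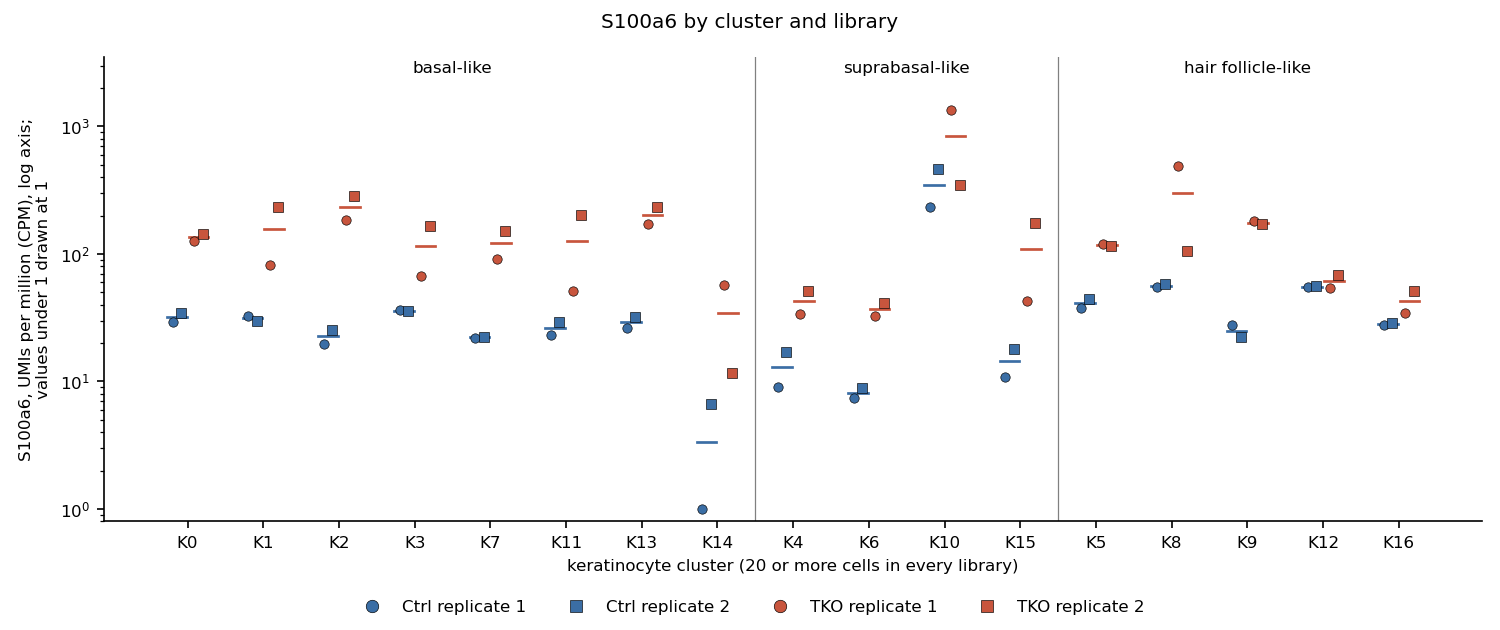
S100a6 in CPM (log axis, values under 1 drawn at 1) in each keratinocyte cluster with 20 or more cells per library; points are libraries, blue Ctrl and red TKO, and bars are group means (n = 2). Red points lie above blue points in every basal-like cluster, while K10 (suprabasal-like) and K12 (hair follicle-like) overlap.

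Suprabasal-like S100a6 depended on very few cells. In this class the libraries had 38.5, 79.4, 190 and 104 CPM (log2 change 1.23, SE 0.40). The change was 0.80 without Ctrl 1, 0.79 without TKO 1 and 3.52 with cells of at least 3000 genes. With the main settings edgeR did not call it, while DESeq2 did. A single cell held 653 of 866 UMIs in Ctrl 1, which is 75.4%, and the highest cells of Ctrl 2, TKO 1 and TKO 2 held 54.1%, 55.2% and 19.1%. All 4 of these cells belonged to K10, a cluster led by Krt7, S100a6, Zfp750, Ror1 and Notch3. With the 1% of cells that had most S100a6 UMIs left out, the class had 8.23, 12.7, 63.1 and 66.7 CPM. The Ctrl libraries then lay below every other keratinocyte value, and the TKO libraries were close to each other. Basal-like levels moved less under the same step, to 23.2, 26.2, 85.3 and 151 CPM, and hair follicle-like levels were 39.7, 42.7, 115 and 99.9 CPM. Without all of K10 the suprabasal-like libraries had 8.31, 13.6, 36.5 and 72.5 CPM, a log2 change of 2.27 (SE 0.42). Both steps were chosen after seeing the data. The lower suprabasal marker level of the TKO libraries, given above, moved with these values too.

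**Figure D3:**
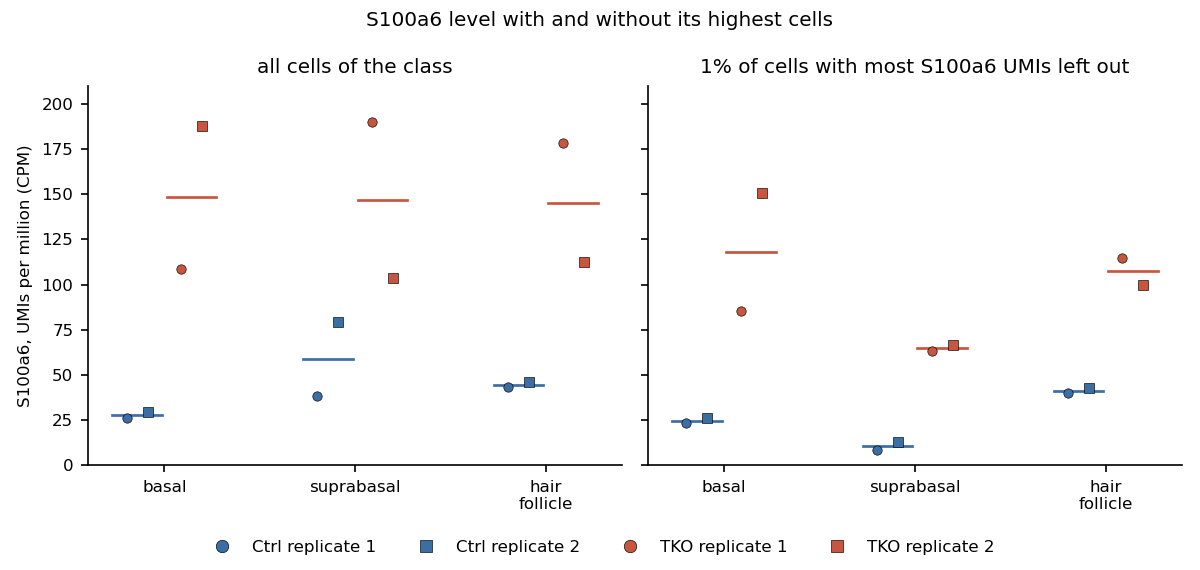
S100a6 in CPM in 3 keratinocyte classes with all cells (left) and without the 1% of cells that hold most S100a6 UMIs (right); points are libraries, blue Ctrl and red TKO, and bars are group means (n = 2). Leaving out these cells lowers the suprabasal-like Ctrl libraries from 38.5 and 79.4 to 8.23 and 12.7 CPM.

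S100a6 was also read in the other cell classes. Immune-like cells had 21.5, 54.4, 22.4 and 63.4 CPM, and replicate 2 was higher than replicate 1 in each genotype (log2 change 0.16, SE 0.58, between −0.78 without TKO 2 and 1.01 without Ctrl 2). Fibroblast-like cells overlapped as well, with the values given above. The groups did not overlap in melanocyte-like cells, at 28.8, 0, 96.2 and 559 CPM on 6, 3, 25 and 18 cells, nor in an unnamed cluster led by the muscle genes Actc1 and Ttn, at 33.2, 104, 219 and 212 CPM on 8, 9, 14 and 17 cells. These are too few cells for a fit. The melanocyte-like cells also held Krt14, at 5979, 0, 463 and 6129 CPM, and the part of keratinocyte RNA in their S100a6 was not tested. Among the keratinocyte clusters, K18 held cells with the genes of Merkel cells, the touch-sensing cells of skin, in Ctrl (30 and 22 cells). Its TKO cells (17 and 15) had 0 UMIs of the Merkel cell genes Atoh1, Isl1, Ccer2 and Insm1, against 8133 and 5832 UMIs of Ccer2 in Ctrl, so they went against that name and are called by cluster here. S100a6 in K18 was 88.1 and 56.5 CPM in Ctrl and 1095 and 2177 CPM in TKO. S100a10 there had 120, 84.7, 1013 and 1073 CPM, and S100a11 had 107, 59.6, 893 and 880 CPM. The cells of this cluster are of different kinds in the genotypes and too few in TKO for a fit, so these values are set side by side and no change is read from them.

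S100a9 went the other way in basal-like cells. There it had 71, 68, 15 and 12 UMIs, or 2.29, 2.30, 0.475 and 0.444 CPM, a log2 change of −2.32 (SE 0.32). The libraries of each genotype lay close together, and the TKO libraries were lower in 5 of 8 basal-like clusters and overlapped Ctrl in 3. At 5000 UMIs per cell, 0.855% and 0.882% of Ctrl and 0.205% and 0.219% of TKO basal-like cells had a UMI of it. Fibroblast-like cells, which should lack the gene, had 0 UMIs at any depth, and at 5000 UMIs 0 of 103, 102, 182 and 125 cells allow shares of up to 2.91%, 2.94%, 1.65% and 2.40%. Their median depth was 14507, 12847, 17986.5 and 14942 UMIs, below that of basal-like cells. The basal-like shares lie under these limits, so the shares alone do not set them apart from background.

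In Ctrl, hair follicle-like cells held 148 of the 230 and 229 of the 330 S100a9 UMIs of all kept cells. In hair follicle-like cells the libraries had 10.3, 15.3, 14.3 and 1.89 CPM, with TKO 1 between the Ctrl libraries (log2 change −0.64, SE 0.69). In TKO 1, however, 143 of 165 UMIs came from 1 cell of K12, which also held 73 S100a8 UMIs, 135 UMIs of a list of neutrophil genes and 10 of the leukocyte gene Ptprc, beside 14 of Krt14 and 0 of Csf3r. Without that cell, left out after seeing the data, the libraries had 148, 229, 22 and 23 UMIs, or 10.3, 15.3, 1.92 and 1.89 CPM (−2.70, SE 0.28). The groups then no longer overlapped, and the TKO libraries were nearly equal. Cluster K9, whose leading genes include the placode genes Dkk4, Sp5 and Fgf20, had 30.7, 99.2, 3.02 and 3.97 CPM of S100a9. In it 32.5%, 24.7%, 6.67% and 9.09% of cells had a UMI, out of 83, 85, 105 and 88 cells, and 1, 5, 0 and 0 cells had at least 10 UMIs. The highest cells of K9 held 13 and 53 UMIs in Ctrl and 6 and 2 UMIs in TKO. K5, another Dkk4 and Fgf20 cluster, had 15.1, 10.3, 2.003 and 1.65 CPM.

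**Figure D4:**
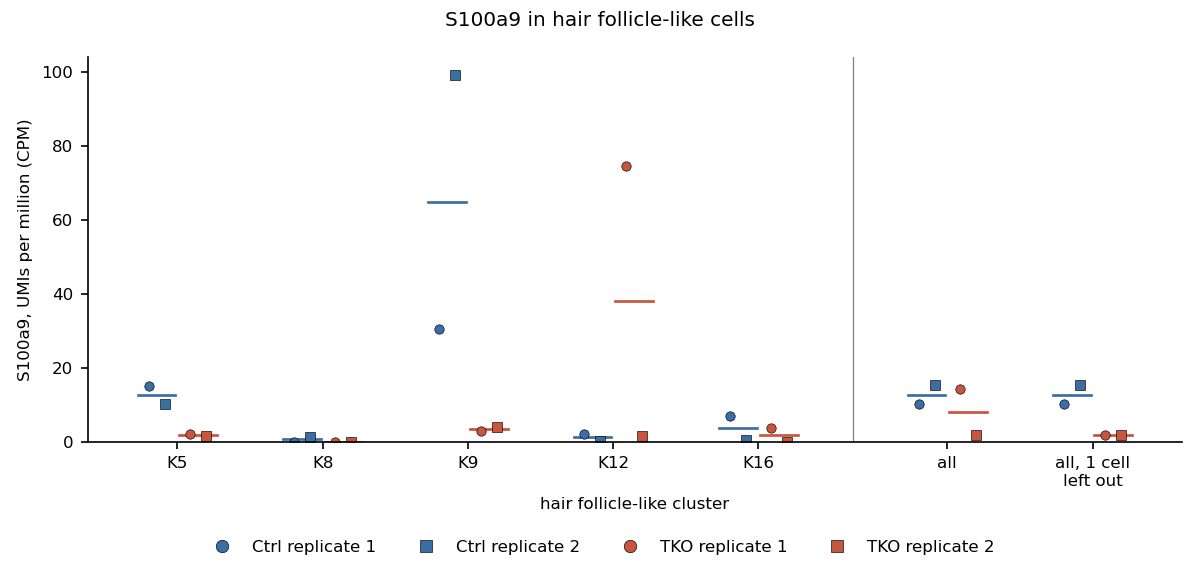
S100a9 in CPM in the 5 hair follicle-like clusters and in the whole class with and without 1 cell of TKO replicate 1 that carried neutrophil transcripts; points are libraries, blue Ctrl and red TKO, and bars are group means (n = 2). K9 and K5 hold the Ctrl signal, and the cell in K12 lifts the class value of TKO replicate 1 from 1.92 to 14.3 CPM.

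Suprabasal-like S100a9 overlapped between the genotypes, at 0.444, 2.64, 2.47 and 3.02 CPM (log2 change 0.86, SE 0.79, between 0.002 without Ctrl 1 and 2.49 without Ctrl 2). In K6, the suprabasal-like cluster led by Ly6g6c, Sprr1b and Calm4, it had 0.539, 0.702, 5.12 and 3.37 CPM, or 5, 3, 12 and 18 UMIs. S100a8, its partner in calprotectin, had 0, 1, 10 and 8 UMIs in all suprabasal-like cells, of which 0, 1, 9 and 7 lay in K6. Both TKO libraries were thus above both Ctrl libraries for the pair in this cluster, on counts too small for the fit of S100a8. In the other 3 suprabasal-like clusters with at least 20 cells per library both genes overlapped. A single suprabasal-like cell of TKO 1 held 5 S100a8 UMIs. Elsewhere S100a8 was nearly silent. Basal-like cells held 0, 0, 0 and 1 of its UMIs and immune-like cells 0, 1, 1 and 3. Hair follicle-like cells held 0, 0, 73 and 0, the 73 being those of the K12 cell. S100a9 had 1 UMI in all immune-like cells, in Ctrl 1, so the immune-like cells kept here, led by macrophage genes and by mast-cell genes, held almost no calprotectin transcripts.

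S100a10 and S100a11, the annexin partners, differed less between the genotypes. S100a10 had 890, 906, 825 and 1019 CPM in basal-like cells (log2 change 0.04, SE 0.13), where the TKO libraries enclosed the Ctrl libraries. In suprabasal-like cells it had 869, 893, 655 and 775 CPM (−0.39, SE 0.14), with both TKO libraries lower, and in hair follicle-like cells 561, 516, 609 and 641 CPM (0.25, SE 0.11), with both higher. In K6 it had 861, 848, 499 and 633 CPM, and in K4 892, 907, 615 and 780 CPM, while in K10 and K15 the libraries overlapped. S100a11 was higher in TKO in basal-like cells, at 601, 565, 699 and 784 CPM (0.34, SE 0.11), and the groups stayed apart in 6 of 8 clusters. It was also higher in hair follicle-like cells, at 402, 389, 505 and 443 CPM (0.30, SE 0.10), in 4 of 5 clusters. In suprabasal-like cells, where its level peaks, it overlapped at 1342, 1208, 1005 and 1254 CPM (−0.26, SE 0.17). Fibroblast-like cells are not the target of the Cre. They had 416, 496, 534 and 500 CPM of S100a11, with both TKO libraries above both Ctrl libraries.

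S100a14 and S100a16 are neighbours on the chromosome. S100a14 had 446, 490, 257 and 464 CPM in basal-like cells (log2 change −0.38, SE 0.26), with TKO 1 low and TKO 2 between the Ctrl libraries; the change was 0.01 without TKO 1 and −0.88 without TKO 2. In hair follicle-like cells it had 330, 368, 134 and 289 CPM (−0.68, SE 0.32), with both TKO libraries lower in the class and in 5 of 5 clusters; the change was −0.21 without TKO 1 and −1.36 without TKO 2. K16, led by Tll1 and by Shh, the signal of the growing follicle bud, had 212, 225, 58.8 and 95.04 CPM. The share of hair follicle-like cells with an S100a14 UMI at 5000 UMIs was 73.6%, 77.7%, 38.2% and 63.1%, against 3.88%, 0.98%, 1.65% and 0.80% of fibroblast-like cells. Suprabasal-like S100a14 was even, at 984, 981, 930 and 1101 CPM (−0.04, SE 0.14). S100a16 had 219, 240, 221 and 268 CPM in basal-like cells (0.09, SE 0.14), 882, 810, 817 and 943 CPM in suprabasal-like cells (−0.03, SE 0.14) and 143, 145, 126 and 156 CPM in hair follicle-like cells (0.01, SE 0.13). The groups overlapped in these 3 classes, while by cluster both TKO libraries were higher in 2 of 8 basal-like and 3 of 4 suprabasal-like clusters and lower in 2 of 5 hair follicle-like clusters. Fibroblast-like cells had 52.8, 108, 100.2 and 92.9 CPM of it.

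S100a4 was low in keratinocytes, with 1.81, 1.76, 2.03 and 2.11 CPM in basal-like cells (log2 change 0.21, SE 0.26), where the groups were apart by a small step. Suprabasal-like cells had 1.02, 0.640, 1.12 and 1.72 CPM (0.67, SE 0.48, between 0.25 without TKO 2 and 1.10 without Ctrl 1), without overlap of the groups. Hair follicle-like cells had 1.46, 0.667, 2.17 and 1.40 CPM (0.78, SE 0.49, between 0.30 without Ctrl 2 and 1.45 without Ctrl 1), where the groups overlapped. Fibroblast-like cells, where the gene is known to be active, had 30.5, 18.0, 24.3 and 22.3 CPM. In immune-like cells it had 0.798, 7.58, 6.14 and 23.1 CPM (1.74, SE 0.93), with overlap, and the change was 0.49 without TKO 2 and 4.17 without Ctrl 2. Much of this lay in a cluster led by the mast-cell genes Cma1, Cpa3 and Tpsb2, which held 4, 3, 19 and 11 cells and 1, 6, 9 and 77 of the 1, 11, 32 and 142 S100a4 UMIs. A single TKO 2 cell held 50 of the 142.

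In immune-like cells, which the Cre does not target, S100a14 had 68.6, 14.5, 2.30 and 4.23 CPM (log2 change −3.62, SE 0.73, between −2.14 without Ctrl 1 and −4.35 without Ctrl 2). S100a16 had 35.1, 11.7, 3.45 and 3.58 CPM (−2.71, SE 0.54, between −1.74 and −3.30 without the same libraries), and both genes were lower in both TKO libraries. Keratins moved with them. The summed level of Krt14, Krt5, Krt10 and Krt1 in the same immune-like cells was 1284, 538, 90.7 and 124 CPM, and the part of this keratinocyte RNA in the values of S100a14 and S100a16 was not tested. In Ctrl 1 the highest single immune-like cell held 41 of the 86 S100a14 UMIs, and for S100a16 it held 23 of 44. S100a11 had 109, 60.0, 39.7 and 55.1 CPM (−0.82, SE 0.30, and −0.35 without Ctrl 1), with 52 of its 136 Ctrl 1 UMIs in 1 cell, and S100a10 had 290, 325, 235 and 431 CPM (0.11, SE 0.29).

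The members' known surroundings were read from 5 lists of 46 genes, of which 30 were tested in at least 1 class and 16 in none. In basal-like cells, 3 of 23 tested genes were called, a share near the 13.7% of all genes tested. Anxa1, the annexin that S100a11 binds, fell from 386 and 445 CPM in Ctrl to 272 and 271 CPM in TKO (−0.62 on the log2 scale with an SE of 0.11; edgeR adjusted p 0.0179). Cacybp, the partner of S100a6, rose from 171 and 167 to 236 and 239 CPM (0.49, SE 0.10, edgeR adjusted p 0.0228). Emb (embigin), a membrane protein reported as a receptor of S100a8, rose from 67.1 and 72.8 to 124 and 100.4 CPM (0.67, SE 0.12, edgeR adjusted p 0.0168). Their groups did not overlap.

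In hair follicle-like cells 5 of 21 tested genes were called, where 12.2% of all genes were. Cacybp rose there too, from 139 and 132 to 187 and 184 CPM (0.49 on the log2 scale with an SE of 0.10; edgeR adjusted p 0.0225). Sugt1, which binds S100a6 and other S100 proteins, rose from 59.9 and 65.3 to 88.6 and 76.7 CPM (0.44, SE 0.11, edgeR adjusted p 0.0491). Emb rose from 25.5 and 25.7 to 88.9 and 57.9 CPM (1.55, SE 0.19, edgeR adjusted p 0.00577). S100a1, a family member best known from muscle, fell from 3.55 and 3.73 to 0.694 and 1.57 CPM (−1.63, SE 0.41, edgeR adjusted p 0.0484), on 51, 56, 8 and 19 UMIs, and DESeq2 did not call it. Defb1, a defensin, fell from 28.6 and 27.4 to 16.2 and 12.5 CPM (−0.93, SE 0.16, edgeR adjusted p 0.0149). In suprabasal-like cells 1 of 25 was called, where 1.10% of all genes were: Lcn2, an iron-sequestering antimicrobial protein, with 2, 1, 18 and 35 UMIs (fitted change 4.48, SE 0.54, edgeR adjusted p 0.0419). Its Ctrl level rests on 3 UMIs, so the fitted size depends on the prior count. In immune-like cells edgeR called 0 of 17 (0.0254% of all genes), with 3 at an unadjusted p under 0.05 and 0 by DESeq2.

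By list and in the order basal-like, suprabasal-like, hair follicle-like and immune-like, 8, 8, 8 and 8 of 8 binding partners were tested, with 1, 0, 2 and 0 called up and 1, 0, 0 and 0 down. Of 6 receptors 4, 4, 4 and 5 were tested, with 1, 0, 1 and 0 up and 0 down. Of 11 other S100 genes 5, 5, 5 and 3 were tested, with 0 up and 0, 0, 1 and 0 down. Of 14 antimicrobial and alarm genes 5, 5, 3 and 1 were tested, with 0, 1, 0 and 0 up and 0, 0, 1 and 0 down. Of 7 S100-fused genes such as Flg and Tchh, 1, 3, 1 and 0 were tested and 0 called by edgeR, with 1, 0 and 1 at an unadjusted p under 0.05 in the keratinocyte classes in this order and 1 basal-like gene called by DESeq2. Tchh (trichohyalin) was this gene, at 18.5, 23.0, 29.9 and 32.1 CPM in basal-like cells (0.57 on the log2 scale with an SE of 0.15; edgeR adjusted p 0.0522), and it is named here after its values were seen. Anxa2, the partner of S100a10, had 906, 1170, 983 and 954 CPM in basal-like cells and was not called in any class. The median log2 change of the binding partners was 0.08, 0.08, −0.07 and 0.05, close to that of all genes. For receptors it was 0.22, 0.11, 0.18 and 0.15, and for other S100 genes −0.04, 0.18, 0.15 and −0.26. Antimicrobial and alarm genes had −0.53, 1.13, −0.30 and 1.68, on 5, 5, 3 and 1 tested genes. In suprabasal-like cells 4 of these 5 had an unadjusted edgeR p under 0.05, as did 2440 of 14595 genes. S100-fused genes had 0.57, −0.04 and 0.73 in the keratinocyte classes, on 1, 3 and 1 genes.

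The TKO libraries could also be split within themselves, a contrast that the choice of members had not used directly. A panel of Npffr1, Gm11884, 1700030N03Rik, Gm42653, Col28a1, Gria3, Svop and D7Ertd128e, 8 genes that earlier results of these data had shown near 0 in Ctrl, split the basal-like cells. Panel and members were both picked from these same data, so the split is not independent of that choice. Gria3 also leads cluster K2, which had the widest basal-like S100a6 gap. The part of cluster membership in the split was not tested. At 5000 UMIs per cell, 1.64% and 0.504% of Ctrl and 68.1% (665 of 976) and 64.2% (587 of 915) of TKO cells had a panel UMI. TKO cells with and without it were summed per library and compared within libraries. S100a6 had 115 CPM with and 66.2 CPM without the panel in TKO 1, and 184 against 137 CPM in TKO 2 (log2 difference 0.55, SE 0.11, edgeR adjusted p 0.00045, 4.89% of 10971 genes called). S100a14 had 217 against 329 CPM in TKO 1 and 422 against 528 CPM in TKO 2 (−0.47, SE 0.08, edgeR adjusted p 7.28e-05). S100a16 had 195 against 240 CPM and 234 against 284 CPM (−0.31, SE 0.09, edgeR adjusted p 0.0252). In both libraries, then, the summed level in cells with the panel was higher for S100a6 and lower for S100a14 and S100a16. The share of cells with an S100a6 UMI differed less in TKO 2, at 36.3% with and 34.8% without the panel. In TKO 1 it was 27.2% against 21.5%.

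S100a10 (log2 difference −0.16, SE 0.07, edgeR adjusted p 0.249) and S100a11 (0.09, SE 0.07, edgeR adjusted p 0.642) did not pass this test, and S100a4, S100a8 and S100a9 were too low for it. TKO cells without a panel UMI still held more S100a6 than the corresponding Ctrl cells, at 27.4 and 29.9 CPM. Cells without a UMI at this depth may still carry the panel, and with 2 libraries the test is small. DESeq2 with the same block called 50 genes and no member (adjusted p 0.975 for S100a6 and 0.319 for S100a14), and over all keratinocytes S100a6 was not called by edgeR (0.32, adjusted p 0.424). Of 16 list genes tested, 0 rose and 2 fell, Cacybp (−0.31, SE 0.09, edgeR adjusted p 0.0313) and Pglyrp4 (−1.37, SE 0.40, edgeR adjusted p 0.0321), a peptidoglycan recognition protein. Cacybp was thus lower in panel cells, while it was higher in TKO than in Ctrl basal-like cells.

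**Figure D5:**
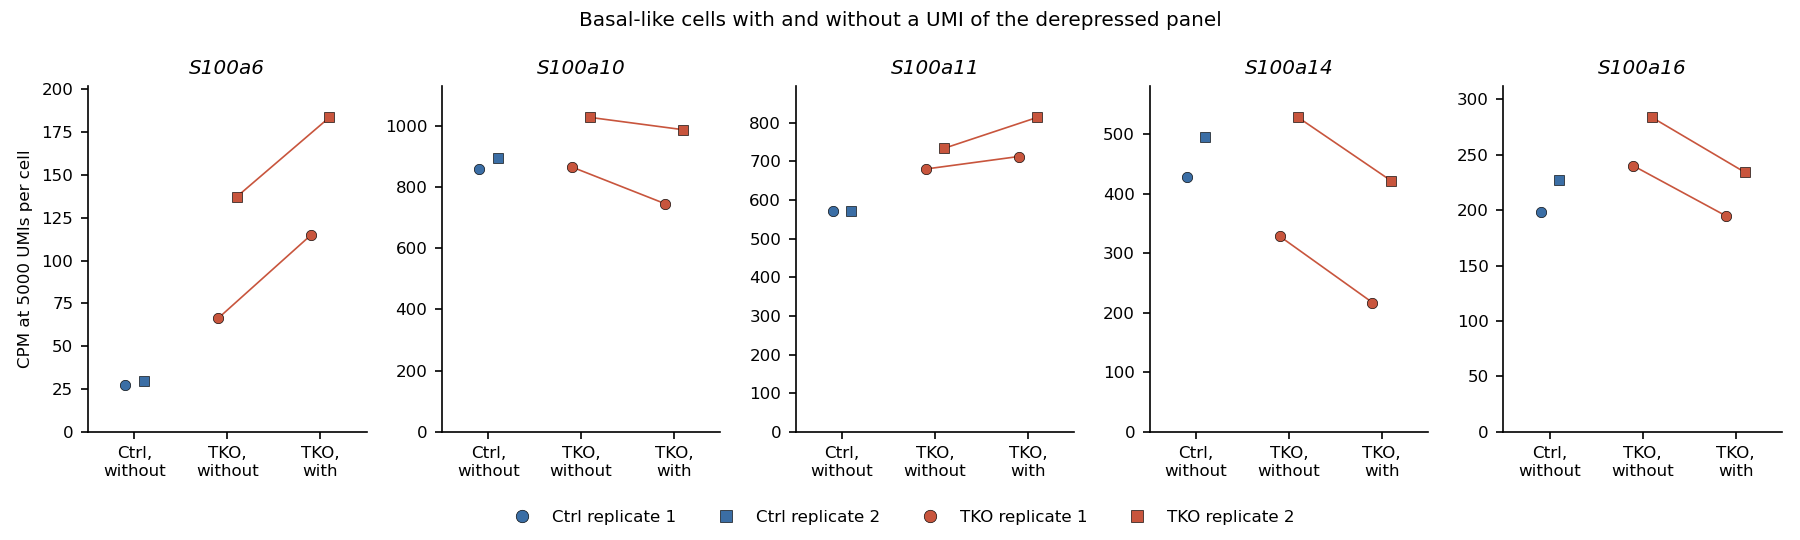
Members in basal-like cells at 5000 UMIs per cell (CPM), for Ctrl cells without a panel UMI (blue) and TKO cells without and with one (red, joined within a library); circles are replicate 1 and squares replicate 2. S100a6 goes up and S100a14 and S100a16 go down from cells without to cells with the panel in both TKO libraries.

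For each member the 3 genes with the most alike levels were listed over 26 class-by-library points from 8 classes, among 10023 genes, by Pearson's r of log2(CPM + 1). Points of a library share its depth and free RNA, so these are descriptions. S100a14 was nearest to the keratinocyte genes Lgals7 (r 0.987), Serpinb5 (0.981) and Pkp1 (0.98). S100a10 was nearest to Prr5l (0.945), Anxa2 (0.922), which encodes its partner, and Prss23 (0.909). S100a11 followed Erbb2 (0.967), Fam185a (0.956) and Bag2 (0.953), and S100a16 followed Bod1 (0.958), Nectin1 (0.949) and Ptpn13 (0.948). S100a6 was nearest to Gsdme (0.898), Sec61a1 (0.881) and Sec31a (0.877). S100a4 was nearest to Rpl39l (0.879), Slc30a5 (0.872) and Hcfc2 (0.849), and S100a9 to Ifi202b (0.796), Moxd1 (0.793) and Pthlh (0.782). Of the 99 S100a8 UMIs over these points, 73 came from the K12 cell with neutrophil transcripts, which also gave 143 of the S100a9 UMIs; the genes nearest to S100a8 were Ccng1 (0.533), 1700030N03Rik (0.522) and AI506816 (0.490).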

How the data were processed

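Single-cell RNA-seq of 2 Ctrl and 2 TKO libraries was used. The authors deposited, for each library, UMI counts by gene and barcode as a filtered matrix without normalization; per the file headers it was written by Cell Ranger 7.1.0, and the methods name another version. The build is GRCm39; the annotation release was not given in the sources used here. No value from the study's own tests was used.

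The members and gene lists were chosen with earlier results of these data known. Cells with at least 2000 genes and under 10% mitochondrial UMIs were kept. Scrublet (scanpy 1.11.5) marked only 5 and 8 Ctrl cells by itself, so the top-scoring 0.8% per 1000 barcodes was left out as doublets, 66 to 157 cells per library. Cells were clustered (2000 variable genes, 30 components, Harmony rewritten here because the package was missing, 20 neighbours, Leiden resolution 1) without S100 genes, and keratinocytes were then clustered again without 1357 genes that differed between genotypes. Clusters were named "-like" from marker lists. Counts were summed per class and library and tested with edgeR 4.0.16 (quasi-likelihood, TMM, default filter, R 4.3.3) over all genes, with Benjamini-Hochberg adjustment; a class needed 20 cells in every library. DESeq2 1.42.0 was an alternative. Cells thinned to 5000 UMIs gave shares, with exact binomial 95% intervals and 3 counts as the limit of a count of 0. The fit was tested on simulated data. Named genes were all 8 members, list genes called in a class (up to the 5 largest per list and class), the 3 targeted genes and the 3 genes most alike to each member (mean of at least 10 CPM). Gene positions came from GENCODE vM39 and promoters from RefSeq (GRCm38.p6).

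Libraries were taken as independent samples, as the study describes them; with 2 per genotype, p-values rest on their spread. Replicate numbers came from the labels. Same-numbered libraries did not deviate together (correlations of −0.18, −0.32, −0.11 and 0.02 in basal-like, suprabasal-like, hair follicle-like and immune-like cells).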

Additional observations from a re-analysis of the deposited data

Results flagged for a closer look

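The TKO libraries lay on opposite sides of the Ctrl libraries in different classes for 2 members. edgeR called none of these changes with the main settings. DESeq2 called S100a11 in basal-like cells. Without an expression filter, edgeR called S100a11 in basal-like and immune-like cells and S100a10 in suprabasal-like cells. Under other alternatives edgeR also called S100a11 in basal-like and in hair follicle-like cells. S100a10 had every TKO library above every Ctrl library in hair follicle-like cells (log2 change 0.25) and below in suprabasal-like cells (−0.39). S100a11 had every TKO library above in basal-like (0.34) and hair follicle-like cells (0.30) and below in immune-like cells (−0.82), where it was −0.15 at 5000 UMIs per cell and where the summed level of 4 keratins was 1284, 538, 90.7 and 124 CPM. It also had every TKO library above in fibroblast-like cells, which were not fitted, at 416, 496, 534 and 500 CPM. The difference between the classes was not tested in either case, nor was the part of keratinocyte RNA.

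Barcodes that the cell filters left out held S100a8 and S100a9 above the Ctrl level. S100a8 had 56 UMIs there in TKO 1 and 5 in TKO 2, against 2 and 0 in Ctrl, and S100a9 had 136 and 37, against 6 and 27. In TKO 1 most of these lay in 2 barcodes with neutrophil genes. One had 4973 UMIs, 21.8% of them mitochondrial, with 36 of S100a8 and 95 of S100a9, and the other had 2605 UMIs and 1300 genes, with 19 and 34.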

How the results depend on the processing

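Of 463 member log2 changes refitted under 20 alternatives, 387 moved by less than the allowed spread, 76 by more, and 28 changed sign. In basal-like cells S100a6 ranged from 1.95 to 2.80 and S100a9 from −3.04 to −1.69. S100a6 ranged from 0.46 (uncorrected components, no longer called) to 2.34 in hair follicle-like and from 0.79 to 3.52 in suprabasal-like cells. S100a9 in hair follicle-like cells ranged from −2.74 with doublets kept to 1.12 at Leiden resolution 0.5. Of 64 levels 17 moved, of 32 shares 13, and for none of the 8 members did Spearman's rho give the same 3 genes.

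Genes called in basal-like cells were 2402, against 4101 with no expression filter, 1319 at 5000 UMIs per cell and 1235 (without Ctrl 1) to 3787 (without TKO 2) with a library left out, and 1384 without Ctrl 2; list genes called were 3, against 7 with no filter and 1 (without Ctrl 1) to 6 (without TKO 1 or TKO 2) with a library left out. In suprabasal-like cells 161 became 716 with DESeq2, 1952 with no filter, 275 with doublets kept, 318 with uncorrected components and 139 to 289 (without Ctrl 2) with a library left out, and 242 without TKO 2; the 1 list gene became 2 with DESeq2, 7 with no filter, 0 at 5000 UMIs, and 0 (without Ctrl 1, Ctrl 2 or TKO 1) to 1 with a library left out. In hair follicle-like cells 1940 became 818 at 5000 UMIs, 769 with uncorrected components, 1222 at Leiden 0.5 853 (without Ctrl 2) to 3214 (without TKO 2) with a library left out, and 1255 without Ctrl 1; the 5 list genes became 3 with no filter, 3 at 5000 UMIs, 1 uncorrected, 2 at Leiden 0.5, 8 with changed or S100 genes kept in clustering, and 2 (without Ctrl 1 or Ctrl 2) to 10 (without TKO 2) with a library left out. In immune-like cells 3 became 57 with DESeq2, 445 with no filter, 1 with doublets kept, 0 with at least 3000 genes (715 at an unadjusted p under 0.05), 0 uncorrected (717) and 3 to 182 (without TKO 1) with a library left out, 39 without Ctrl 2 and 94 without TKO 2; list genes stayed at 0 except 1 with no filter. Leiden 0.5 left under 20 immune-like cells in a library, so no fit was made.

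With the replicate block, calls were 1899, 13, 1691 and 4, with 0 list genes in suprabasal-like cells; the numbers did not pair the libraries. A crossed pairing, chosen after seeing the data, gave 3493, 1123 and 2588 calls in the 3 keratinocyte classes, with 3 list genes in suprabasal-like cells. Also chosen after the data were seen, leaving out the S100a6-rich cluster gave 120 suprabasal-like calls, leaving out the cell with neutrophil genes 1951 hair follicle-like calls, and counting erythroid-like cells in 2 immune-like calls.

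Within TKO, 537 calls became 50 with DESeq2 and 872 with at least 2 panel UMIs. S100a6 lost its call with DESeq2 (0.57) and over all keratinocytes (0.32), S100a14 with DESeq2 (−0.48), and S100a16 with DESeq2 (−0.32), at 3000 UMIs (−0.17) and over all keratinocytes (−0.22). The causes were not tested. The few UMIs of S100a4, S100a8 and S100a9 limit what can be read of them.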
